A study of Glycine max with 24 samples.

Results

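The genotype-dependent response to magnesium (Mg) at 72 h was followed in the root tips of soybean (Glycine max), in 12 of the series' 24 Affymetrix soybean arrays. The 12 arrays were those taken at 72 h, and they formed 4 groups of 3: PI 416937 (called PI here) given aluminium (Al) plus Mg, PI given Al alone, the cultivar Young given Al plus Mg, and Young given Al alone. All 4 groups came from the last centimetre of roots grown in hydroponic culture with 10 µM Al. The Mg dose is unstated and plants never given Al were not analysed here, so every effect of Mg is measured in the presence of Al. Titles of the Al-alone arrays end in an unexplained c, and their descriptions name aluminium only. The labels call PI sensitive to Al and Young tolerant, whereas PI 416937 is generally known as an Al-tolerant line, so no direction below is read in terms of tolerance. Each genotype is 1 line, and the labels do not say whether replicate arrays came from separate plants, so p-values measure only the spread between these arrays. The other 12 arrays, from the same groups at 12 h, served for comparison and for the estimate of the spread.

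Al ions in acid soil stop the growth of the root tip within hours and set off a broad stress response that includes oxidative and defence genes. Mg ions are known to relieve this toxicity in soybean, where root tips release citrate that binds Al. The comparison asks whether the transcripts of the root tip followed added Mg differently in the 2 genotypes.

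The Mg response of a genotype is the log2 intensity with Al plus Mg minus that with Al alone, and the interaction is the Mg response of PI minus that of Young. An interaction above 0 thus means that Mg raised a transcript more, or lowered it less, in PI than in Young. Tests covered the 37593 soybean probe sets, those with IDs starting in Gma. Passing means a limma p under 0.05 after Benjamini-Hochberg adjustment. A value counts as background when it lies under the 99th percentile of the 23442 probe sets of other prefixes on its array, which is a log2 intensity of 2.86 to 3.27 on the arrays of 72 h. Each SE and p uses a spread of the probe set pooled over all 8 groups. Where most groups lie at background and hardly vary, that spread can be too small for a group with signal. In whole root tips, fewer cells of a type and less RNA per cell cannot be told apart.

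Between replicates of 72 h, Pearson's r across the 33039 probe sets that cleared a signal filter was 0.984 to 0.994. Precision is limited by having 3 arrays in a group. Replicate 2 of PI with Al plus Mg stood apart in a hybridisation control, bioB, at an intensity of 1375, against 482 to 838 on the other arrays of 72 h. Without that array 531 probe sets passed the interaction instead of 544, but only 364 of the 544 (66.9%) were among them. All 9 root and growing tip markers were above background on all 12 arrays, and among 6 seed storage and inhibitor genes only GY2, on 1 array, was. Of 4 nodule genes ENOD40B alone was, on all 12. The 3 photosynthesis genes looked at were above background on every array: CAB3 averaged 10.42 in PI with Al plus Mg, 10.31 in PI with Al alone, 9.49 in Young with Al plus Mg and 8.11 in Young with Al alone, and its interaction of −1.27 did not pass (limma adjusted p = 0.257). The light-harvesting gene LOC547819 averaged 8.63, 7.66, 7.94 and 4.08 in the same order of groups, with an interaction of −2.90 (adjusted p = 0.181). PSAD, of photosystem I, averaged 13.67, 13.65, 13.45 and 13.42 in that order, with an interaction of −0.01 (adjusted p = 0.993). The part that other tissue has in the results was not tested. Signal at the 3′ end over that at the 5′ end of a cytochrome P450 control was higher with Mg by 1.61 in PI and 1.54 in Young on the log2 scale. The genotypes differed in this measure by 0.07, where the SD within a group was 0.16 to 0.37. For an actin control the same measure was higher with Mg by 0.42 in PI and 0.52 in Young, a difference of −0.11. Actin 3′ over middle signal differed by 0.16. The part that RNA quality or labelling has in the Mg responses was not tested.

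Added Mg moved much of the transcriptome in both genotypes, and the responses differed between them for a small share of it. The Mg response itself passed for 12685 probe sets in PI (33.7% of those tested; 20.7% rose and 13% fell) and for 14788 in Young (39.3%; 23.1% rose and 16.3% fell). The interaction passed for 544 (1.45%), of which 302 lay above 0 (0.803%) and 242 below (0.644%), while 5177 had an unadjusted p under 0.05. After every array was shifted to the same median, 608 passed, 207 above 0 and 401 below, so the balance of directions depends on scaling, which moved the median interaction of all probe sets by −0.08. Of the 544, 321 had an interaction of at least 2-fold. Their absolute interactions ran between 0.18 and 7.85 with a median of 1.18, and the last to pass had −0.72 (adjusted p = 0.0499) while the first not to pass had 0.53 (0.0505). Without replicate 2 of Young with Al plus Mg 301 passed, 166 above 0 and 135 below. Without replicate 2 of Young with Al alone 367 passed, 152 of them below 0. There were 221 when the spread came from the 12 arrays of 72 h alone.

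**Figure D1:**
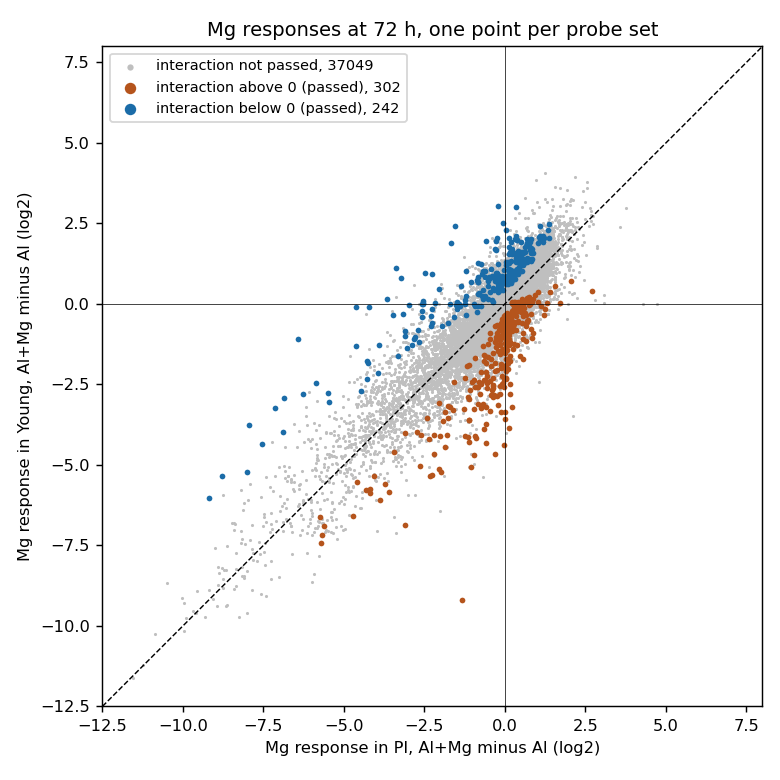
Mg response at 72 h in PI (x axis) against that in Young (y axis), log2 of Al plus Mg over Al alone, with 1 point for each of the 37593 probe sets. The dashed line marks equal responses. The 302 orange points (interaction above 0) lie below the line and the 242 blue points (interaction below 0) above it, and SABATH2 is the orange point farthest from the line.

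Opposite calls were rare. Of 41 probe sets called for Mg in both genotypes with opposite signs, 38 passed the interaction: 18 rose in PI and fell in Young, and 20 fell in PI and rose in Young. The rest of the 544 differed in size, or were called in 1 genotype only. Among those above 0, 145 fell in Young without a call in PI, 78 fell in both and further in Young, and 56 rose in PI without a call in Young. The remaining 5 rose in both and further in PI: GmaAffx.51832.1.S1_at, GmaAffx.90689.1.S1_at (LOC100797958), Gma.5550.2.S1_at, GmaAffx.6611.1.A1_at and GmaAffx.10186.1.S1_at, with interactions between 0.51 and 1.34, named after their values were seen. Among those below 0, 82 rose in Young without a call in PI, 61 rose in both and further in Young, 49 fell in PI without a call in Young, and 30 fell in both and further in PI.

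Probe sets called in the same direction in both genotypes were compared in size. Of 5360 that rose in both genotypes, 3740 (69.8%) rose further in Young, with median rises of 0.63 in PI and 0.76 in Young. Of these 5360, 66 (1.23%) passed the interaction. Of 3913 that fell in both, 2067 (52.8%) fell further in Young, and 108 of the 3913 (2.76%) passed. Their medians were −1.47 in PI and −1.51 in Young, a difference smaller than the shift of −0.08 that equal array medians gave. Over all tested probe sets 1.45% passed. An interaction above 0 was found for 51.9% of all, which for a fall means further in Young and for a rise further in PI. These shares describe the same arrays as the interaction and are no separate test of it.

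**Figure D2:**
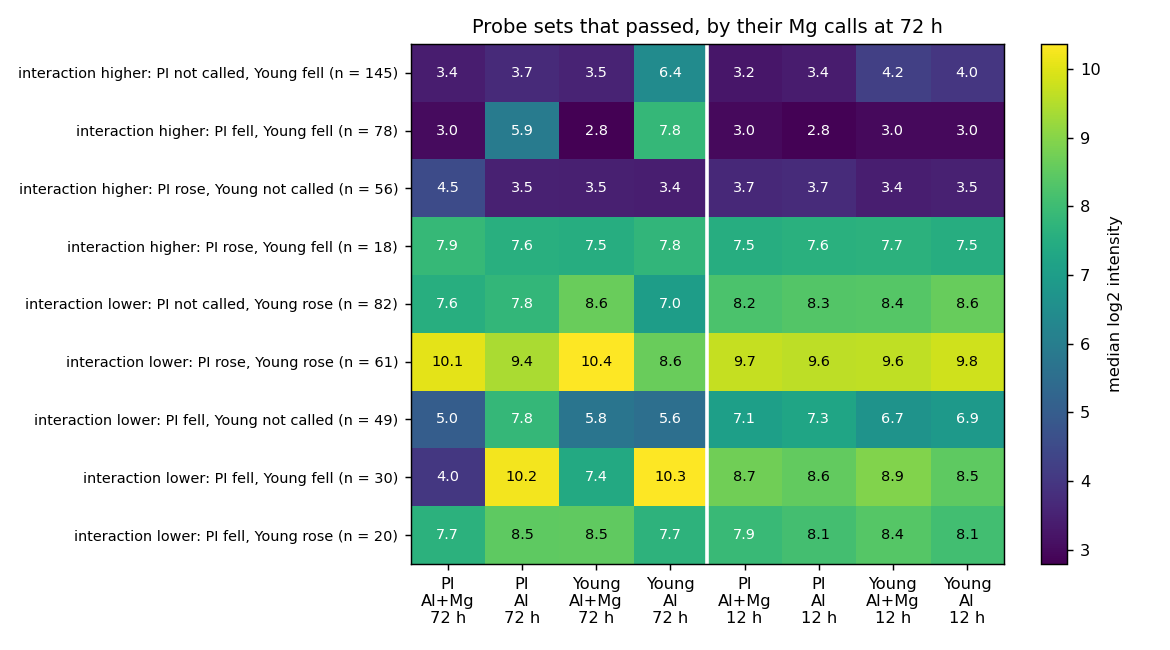
Median log2 intensity in each of the 8 groups for the probe sets that passed the interaction at 72 h, sorted by the Mg call in each genotype. The 4 columns on the left are the groups of 72 h, and the 4 on the right are the same groups at 12 h. In the 145 probe sets of the top row the 72 h column of Young with Al alone stands at 6.44, and the other 72 h columns at 3.40 to 3.70.

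Young roots with Al alone were the group that most often stood apart, a description of the arrays that the interaction was computed from and no test. For each probe set the group farthest from the mean of the other 3 was noted: it was Young with Al alone for 293 of the 544 (53.9%), against 35.0% of all tested probe sets. PI with Al plus Mg was that group for 106 (19.5%, against 31.9% of all). Among interactions above 0, 206 of 302 had Young with Al alone farthest out, which for an interaction above 0 makes it the highest group. Their median log2 intensity was 3.06 in PI with Al plus Mg, 4.58 in PI with Al alone, 3.02 in Young with Al plus Mg and 6.76 in Young with Al alone. At 12 h the medians of the 4 groups were between 2.88 and 3.28, and 67 of the 206 were at background in every group of 12 h. With Al plus Mg at 72 h, 101 were at background in PI and 89 in Young. Shares of all tested probe sets at background in these groups were not counted, though 5895 were at background in all 4 groups of 72 h. Picking sets highest in Young with Al alone also favours background elsewhere, so these counts only describe the 206. With equal array medians Young with Al alone was the farthest group for 327 of 608 (53.8%), a check added after the values had been seen. Its split by direction depended on scaling, with 162 above 0 and 165 below, against 206 and 87 with the values as deposited.

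Counted by array, the description rests on the same values that chose the probe sets and adds no support. In 198 of the 302 probe sets above 0 all 3 arrays of Young with Al alone lay above all 9 other arrays of 72 h, as they did in 6.75% of all tested probe sets. In 97 of the 242 below 0 they lay under all 9 others (12.1% of all). The arrays of PI with Al plus Mg lay above all 9 others in 53 of the 302 (17.5%, against 12.2% of all) and under them in 54 of the 242 (22.3%, against 4.72% of all). Split by treatment, the genotypes differed with Al alone and not with Al plus Mg in 203 of the 302 (67.2%), and with Al plus Mg and not with Al alone in 74 (24.5%). For the 242 below 0 these were 109 (45.0%) and 105 (43.4%). Over all tested probe sets the genotypes differed in 9.83% with Al plus Mg (5.12% higher in PI, 4.71% lower) and in 12.6% with Al alone (6.24% higher, 6.37% lower). These comparisons share their arrays with the interaction. The counts behind them, 3696 with Al plus Mg and 4737 with Al alone, were 1752 with Al plus Mg without replicate 2 of Young with Al plus Mg, and 2778 with Al alone without replicate 2 of Young with Al alone, so their order rests on single arrays.

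Of the 544, 138 could be paired with 1 gene in the name table, standing for 124 genes. Of 1005 genes with a name, 18 passed through the probe set of highest mean that represents them, 11 above 0 and 7 below. Over all 6031 genes represented in this way, named or not, 101 passed (1.67%).

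**Figure D3:**
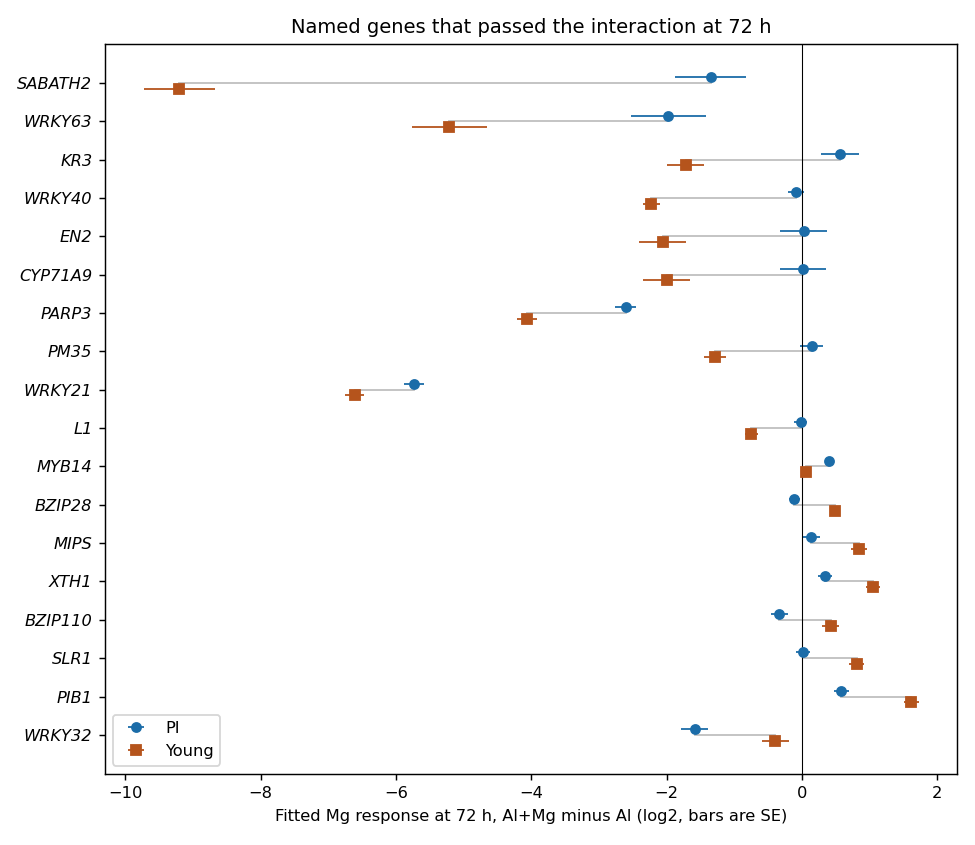
Fitted Mg response at 72 h (x axis, log2) of the 18 named genes that passed the interaction, ordered by it. Circles are PI, squares are Young and bars are standard errors. From SABATH2 to MYB14 the circle lies to the right of the square, and from BZIP28 to WRKY32 to its left.

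The gene with the highest interaction was SABATH2, of a family of methyltransferases that act on small acids such as plant hormones. It was at background on all arrays with Al plus Mg, with 2.49, 2.52 and 2.48 in PI, against 2.45, 2.45 and 2.54 in Young. With Al alone it measured 2.45, 4.48 and 4.60 in PI, against 11.46, 11.96 and 11.61 in Young. Every array of Young with Al alone thus lay far above all others, and PI with Al alone was above background on 2 of 3. The fitted interaction was 7.85 ± 0.74 (SE; limma adjusted p = 1.56e-05), and with Al alone SABATH2 was at least 204-fold lower in PI than in Young (adjusted p = 2.39e-08). Its relative SABATH1 had an interaction of −0.61 that did not pass (adjusted p = 0.101). The probe set's name ends in _s_at, the array maker's mark for probes that may bind related transcripts.

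WRKY factors, which bind DNA at stress and defence genes, held 4 of the 18 genes, 4 of 53 measured, where 1.67% of all represented genes passed. WRKY40 was at background on all 9 arrays outside Young with Al alone, at 2.21 to 2.24 in PI with Al plus Mg, 2.22 to 2.51 in PI with Al alone and 2.21 to 2.38 in Young with Al plus Mg. In Young with Al alone it measured 4.21, 4.88 and 4.40. It was at least 2.96-fold lower in PI than in Young with Al alone (limma adjusted p = 2.27e-09), and the fitted interaction was 2.13 ± 0.17 (SE; adjusted p = 2.13e-06). The 2 genotypes therefore differed on the side of Al alone, where PI arrays gave no signal above background. The SD of WRKY40 was 0.35 in Young with Al alone and 0.01 in PI with Al plus Mg. Its pooled SE and adjusted p thus understate the spread in the group with signal.

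WRKY63 and WRKY21 were called lower with Mg in both genotypes and stood higher in Young with Al alone. WRKY63 averaged 3.19 ± 0.52 (SD, n = 3) in PI with Al plus Mg and 5.17 ± 1.23 in PI with Al alone. In Young it averaged 2.64 ± 0.07 with Al plus Mg, at background, and 7.86 ± 0.51 with Al alone. All arrays of Young with Al alone were above those of PI with Al alone, the interaction was 3.24 ± 0.78 (SE; limma adjusted p = 0.0484), and a second probe set gave 1.87 without passing (adjusted p = 0.11). WRKY21 was at background with Al plus Mg in both genotypes. With Al alone it measured 8.51, 8.05 and 7.84 in PI, against 8.52, 9.15 and 9.22 in Young, 1.78-fold lower in PI (adjusted p = 0.00113), with all PI arrays below all Young arrays, though by a narrow gap. The fitted interaction was 0.88 ± 0.21 (SE; adjusted p = 0.0425). A second probe set of WRKY21 passed as well, at 1.29 (adjusted p = 0.0104).

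WRKY32 ran the other way and differed on the side of Al plus Mg. Its log2 intensity was 6.58, 6.18 and 6.54 in PI with Al plus Mg and 8.24, 7.80 and 8.01 in PI with Al alone. In Young it was 7.63, 7.82 and 7.62 with Al plus Mg and 8.18, 8.14 and 7.93 with Al alone. PI with Al plus Mg was the low group, and the Mg response was −1.58 ± 0.20 (SE) in PI, against −0.40 ± 0.20 in Young, an interaction of −1.19 (limma adjusted p = 0.0453). The other probe sets of WRKY32 had interactions of −0.07 and 0.14 and did not pass. Over the whole family of 53 measured WRKY factors, 3 passed above 0 and 1 below, the median interaction was 0.18 (0.10 with equal medians) and 35 had a positive value (66.0%), against a median of 0.005 and 51.9% over all tested probe sets.

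**Figure D4:**
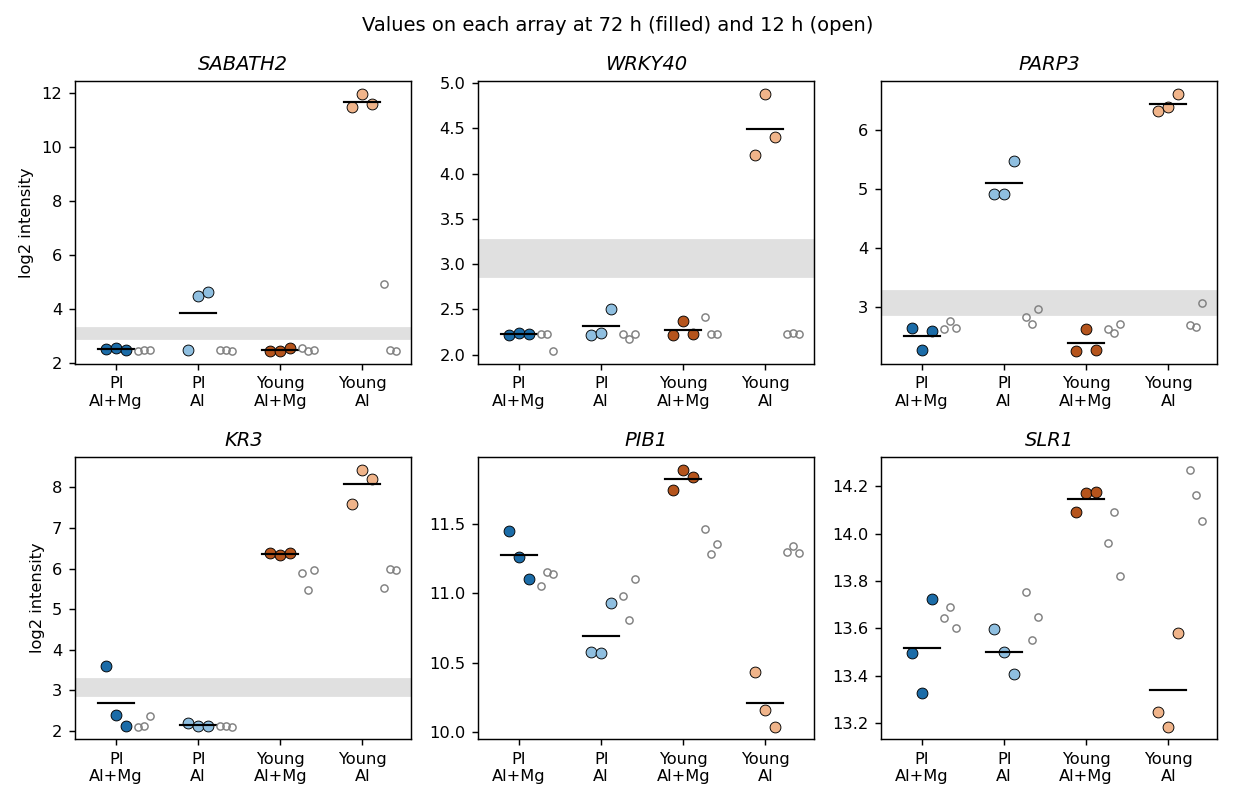
Log2 intensity (y axis) of 6 genes on each array, by group (x axis). Filled points are the 3 arrays of 72 h with their mean as a line, open points the 3 arrays of the same group at 12 h, and the grey band is the range of the background bound on the arrays of 72 h. SABATH2 and WRKY40 stand above the band at 72 h in Young with Al alone, and SABATH2 also on 2 arrays of PI with Al alone. For PIB1 the 3 arrays of Young with Al plus Mg lie above, and those with Al alone below, all others of 72 h.

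PARP3, a poly(ADP-ribose) polymerase, is of a family that modifies proteins after DNA damage and stress. It was at background with Al plus Mg, with 2.63, 2.26 and 2.59 in PI, against 2.25, 2.62 and 2.26 in Young. With Al alone it measured 4.92, 4.91 and 5.47 in PI, against 6.32, 6.39 and 6.61 in Young. The PI arrays lay below all Young arrays, 2.53-fold lower (limma adjusted p = 1.83e-05), and the fitted interaction was 1.46 ± 0.22 (SE; adjusted p = 0.00197). At 12 h its group means were 2.63 to 2.82.

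KR3, of the class of plant resistance proteins that detect pathogens inside the cell, was at or near background in PI. It measured 3.59, 2.38 and 2.12 there with Al plus Mg and 2.18, 2.11 and 2.11 with Al alone. In Young it stood at 6.37, 6.33 and 6.38 with Al plus Mg and at 7.60, 8.44 and 8.19 with Al alone. Mg lowered it 3.29-fold in Young (limma adjusted p = 8.49e-05), and the interaction was 2.28 ± 0.39 (SE; adjusted p = 0.00594). A second probe set of KR3 gave 1.71 without passing (adjusted p = 0.0596). PI was above background on 1 of 6 arrays, so an Mg response could be measured in Young only. KR3 was also at background on all 6 PI arrays of 12 h, where the 6 Young arrays lay between 5.47 and 5.98.

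PM35, CYP71A9 and EN2 were also among the named genes above 0. PM35, a seed maturation protein of the kind made on drying, measured 4.39, 4.34 and 4.80 in Young with Al alone, against 3.22 to 4.11 on the other 9 arrays. Its interaction was 1.42 ± 0.23 (SE; limma adjusted p = 0.00449), and without its one higher PI array, replicate 1 with Al plus Mg, all other groups were within 3.22 to 3.59. Most of these values lay close to the background bound, so 1.42 is no secure size. Over the 20 other settings the interaction of PM35 was 0.46 to 1.57. CYP71A9, a cytochrome P450, was at background on all arrays but those of Young with Al alone, where it spread over 3.86, 3.25 and 5.59 (fitted interaction 2.01 ± 0.48, adjusted p = 0.0481). EN2 differed on the side of Al plus Mg: it averaged 8.05 ± 0.20 in PI with Al plus Mg and 8.03 ± 0.45 in PI with Al alone, against 6.24 ± 0.09 in Young with Al plus Mg and 8.30 ± 0.48 in Young with Al alone (SD, n = 3 each). Its interaction was 2.09 ± 0.49 (SE; adjusted p = 0.0423).

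L1 was abundant and changed little in size but evenly between arrays. In PI it measured 11.85, 11.83 and 11.66 with Al plus Mg and 11.78, 11.78 and 11.84 with Al alone. In Young it measured 11.61, 11.47 and 11.51 with Al plus Mg and 12.27, 12.44 and 12.13 with Al alone. Only in Young did the arrays of the 2 treatments part, and the Mg response was −0.02 ± 0.09 (SE) in PI and −0.75 ± 0.09 in Young, an interaction of 0.73 (limma adjusted p = 0.0102). Of its 3 other probe sets 1 passed, at 0.63 (adjusted p = 0.00459), and the others had −0.22 and 0.05. MYB14 passed at a fitted 0.34 (adjusted p = 0.0289) with all 4 groups at background, so that no size can be given.

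The 7 named genes below 0 include regulators of growth and of transcription. PIB1, a basic helix-loop-helix factor named for its induction by Phytophthora sojae, had the lowest interaction among them after WRKY32. In PI it measured 11.45, 11.26 and 11.11 with Al plus Mg and 10.58, 10.57 and 10.93 with Al alone. In Young it measured 11.74, 11.89 and 11.84 with Al plus Mg and 10.43, 10.16 and 10.04 with Al alone. The treatments did not overlap in either genotype, and Mg raised PIB1 by 0.58 ± 0.11 (SE) in PI and by 1.61 ± 0.11 in Young, an interaction of −1.03 ± 0.16 (SE; limma adjusted p = 0.00237). PI was thus below Young with Al plus Mg (adjusted p = 0.00429) and above it with Al alone (adjusted p = 0.00841).

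SLR1 is named after the rice SLENDER1 protein, a DELLA repressor of gibberellin responses. In PI it measured 13.50, 13.33 and 13.72 with Al plus Mg, overlapping with 13.60, 13.50 and 13.41 with Al alone. In Young it measured 14.09, 14.17 and 14.18 with Al plus Mg, above all of 13.25, 13.18 and 13.58 with Al alone. The Mg response was 0.01 ± 0.11 (SE) in PI and 0.81 ± 0.11 in Young, an interaction of −0.79 (limma adjusted p = 0.0116). The 3 other abundant probe sets of SLR1 had interactions of −0.64 to −0.70 that did not pass (adjusted p = 0.0526 to 0.111). Their Mg responses were 0.18 to 0.35 in PI and 0.81 to 1.05 in Young, so a flat response in PI rests on 1 probe set. These _s_at and _x_at sets may share transcripts.

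Of the other gibberellin genes none passed, where 1.67% of all represented genes did. The list of 20, with SLR1 included, held mostly GASA peptides that respond to the hormone. It had a median interaction of −0.34 (−0.43 with equal medians), 5 positive values (25.0%) and 3 unadjusted p under 0.05, that of SLR1 among them. Over all probe sets 13.8% had such a p. The lowest interactions of the list, singled out by value, were those of GASA13 and the gibberellin synthesis gene GA20OX3. GASA13 had Mg responses of 1.22 in PI and 2.28 in Young (interaction −1.06, limma adjusted p = 0.218). GA20OX3 had 1.64 in PI and 2.55 in Young (interaction −0.91, adjusted p = 0.495). The highest was that of GASA34, at 0.58 (adjusted p = 0.81).

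XTH1, a xyloglucan endotransglucosylase that remodels the cell wall as cells expand, rose in both genotypes and further in Young. In PI it measured 14.82, 14.79 and 14.63 with Al plus Mg and 14.56, 14.34 and 14.31 with Al alone. In Young it measured 14.81, 14.76 and 14.82 with Al plus Mg and 13.77, 13.49 and 13.97 with Al alone. With Al plus Mg the genotypes overlapped, while with Al alone all PI arrays lay above all Young arrays, 1.57-fold higher in PI (limma adjusted p = 0.000659, interaction −0.71, adjusted p = 0.0288). Cell wall genes as a list of 10 had a median interaction of −0.60 (−0.69 with equal medians), 3 positive values (30.0%) and 6 unadjusted p under 0.05 (60.0%), but XTH1 alone passed. The polygalacturonase inhibitor PGIP4 had −1.50 (adjusted p = 0.0541), the polygalacturonase PG7 −1.71 (0.0786) and the proline-rich protein PRP2 −1.25 (0.0966), while PRP3 had 4.01 (0.0768).

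MIPS, the enzyme that makes myo-inositol phosphate, rose in Young by 0.84 ± 0.12 (SE; limma adjusted p = 2.85e-05) and had an Mg response of 0.14 ± 0.12 in PI. Its interaction of −0.71 passed narrowly (adjusted p = 0.0496), and a second probe set gave −0.71 without passing (adjusted p = 0.053). Among bZIP factors, which bind DNA in stress and hormone responses, 2 of 64 passed, both below 0, where 1.67% of all represented genes passed. The list's median interaction was 0.05 (−0.03 with equal medians, so its sign depends on scaling). BZIP28 measured 11.06, 11.17 and 11.16 in PI with Al plus Mg and 11.37, 11.10 and 11.26 in PI with Al alone. In Young it measured 11.43, 11.43 and 11.53 with Al plus Mg and 11.02, 10.94 and 10.97 with Al alone. Only the Young arrays parted by treatment, with an interaction of −0.60 ± 0.11 (SE; adjusted p = 0.0125), and a second probe set passed at −0.58 (adjusted p = 0.0282).

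BZIP110 was the named gene called with opposite signs. Mg lowered it in PI by a log2 difference of −0.33 (limma adjusted p = 0.044) and raised it in Young by 0.42 (adjusted p = 0.0102). In PI the treatments overlapped narrowly, as replicate 2 with Al plus Mg and replicate 3 with Al alone both measured 12.34. The interaction of BZIP110 was −0.75 ± 0.17 (SE; adjusted p = 0.0375), and of its 2 other probe sets 1 passed at −0.86 (adjusted p = 0.0448) while 1 had −0.57 (adjusted p = 0.563). The Mg response in PI was −0.36 in the former and 0.30 in the latter, so the fall in PI was not shared by all. With Al alone PI stood 1.64-fold above Young, at 12.57, 12.65 and 12.34 in PI against 11.74, 11.61 and 12.08 in Young, with no overlap.

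The 2 highest and 2 lowest interactions without a gene name were wider than those of all named genes but SABATH2. Gma.3000.2.S1_a_at measured 2.66 to 2.80 in PI with Al plus Mg, 2.50 to 3.14 in PI with Al alone and 3.15 to 3.75 in Young with Al plus Mg, against 8.27, 7.35 and 7.82 in Young with Al alone. Young with Al alone again stood clear of all others of 72 h, and Young with Al plus Mg was 20.8-fold lower (interaction 4.36, limma adjusted p = 0.0055). At 12 h this probe set averaged 5.62 in Young with Al plus Mg and 4.32 in Young with Al alone. PI was then at or near background, at 2.56 and 2.64, so the genotypes already differed in level. Gma.3774.2.S1_a_at, paired with LOC100815038, had a like shape at 72 h with a wide spread (interaction 4.35, adjusted p = 0.0417). It measured 9.72, 6.51 and 7.79 in Young with Al alone, against 3.31 to 3.85 on the other 9 arrays. Its call held in 1 of 12 fits with 1 array left out. A second probe set of LOC100815038 gave 2.21 without passing (adjusted p = 0.332).

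At the other end the signal was low in PI with Al plus Mg. GmaAffx.47611.1.S1_s_at measured 2.96, 2.91 and 3.81 in PI with Al plus Mg and 7.54, 7.65 and 8.32 in PI with Al alone. In Young it measured 7.23, 9.49 and 7.12 with Al plus Mg and 7.61, 8.51 and 8.03 with Al alone, where the treatments overlapped (interaction −4.51, limma adjusted p = 0.00941). It did not pass with an offset of 32 added to the intensities (adjusted p = 0.113), nor with the arrays of 72 h alone (adjusted p = 0.0617). Gma.8292.1.S1_at, paired with LOC547562, measured 3.41, 2.90 and 4.43 in PI with Al plus Mg and 10.81, 9.85 and 9.32 in PI with Al alone. In Young it was at 2.30, 2.30 and 2.31 with Al plus Mg and 3.35, 3.39 and 3.40 with Al alone. PI with Al alone was thus the only group of 72 h with a strong signal (interaction −5.34, adjusted p = 0.000815). At 12 h both PI groups had signal, averaging 7.06 with Al plus Mg and 6.66 with Al alone. Young was then at background, at 2.41 and 2.37, so the genotypes already differed in level. Of the 5 other probe sets of LOC547562 none passed, and the most abundant, Gma.18007.1.S1_at, had −0.85 (adjusted p = 0.412).

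Passing probe sets that do not represent their gene pointed to 3 further names, chosen after their values were seen. A second probe set of PR1-7, a pathogenesis-related protein, was at background with Al plus Mg in both genotypes and averaged 6.05 in PI with Al alone, against 4.27 in Young with Al alone (fitted interaction −1.78, limma adjusted p = 7.27e-05). The probe set that represents PR1-7 had −0.51 and did not pass (adjusted p = 0.95). One of GBSSIa, a starch synthase, had −2.29 (adjusted p = 0.0419), and one of MAPKK2, a kinase of the MAP kinase cascade, −0.54 (adjusted p = 0.0136). The GBSSIa set lay near background, at means of 3.68 in PI with Al plus Mg, 3.93 in PI with Al alone, 5.02 in Young with Al plus Mg and 2.98 in Young with Al alone, so −2.29 is no secure size. Neither GBSSIa nor MAPKK2 passed through the probe set that represents it.

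Several stress-related lists that Mg lowered in both genotypes had no member that passed the interaction. Over all represented genes 1.67% passed, a share at which lists of these sizes can hold none. No member of the glutathione transferase family, which detoxifies reactive compounds, passed among 37, with a median interaction of 0.10 (0.02 with equal medians). In each genotype 22 of them fell (13% of all probe sets fell in PI and 16.3% in Young). None of 20 NAC factors passed (14 fell in PI and 17 in Young). Their median interaction was 0.31 (0.23 with equal medians), and 16 were positive. NAC6 and LOC100816770 (NAC55), singled out by value, went against that balance, at −2.01 and −2.16 (adjusted p = 0.142 and 0.139). None of the 3 alternative oxidases, which carry electrons to oxygen in mitochondria, passed: AOX1 had Mg responses of −5.99 in PI and −8.63 in Young (interaction 2.64, limma adjusted p = 0.206), AOX2 had an interaction of −0.05 and AOX3 of −0.29. A p that misses the threshold at 3 arrays a group does not show that the genotypes responded alike.

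In the list of 12 pathogenesis-related and defence genes KR3 alone passed. PR-10 and PR1-1, named here after their values were seen, had close values in the genotypes. PR-10 had Mg responses of −11.56 in PI and −11.63 in Young (interaction 0.07, limma adjusted p = 0.985), and PR1-1 of −11.25 and −11.21 (−0.04, adjusted p = 0.995). Among 16 genes of organic acid metabolism and Al tolerance none passed and 1 had an unadjusted p under 0.05, PPCK2, a kinase of phosphoenolpyruvate carboxylase, with 0.75 (adjusted p = 0.115). STOP1, a factor needed for Al tolerance in Arabidopsis, had 0.19 (adjusted p = 0.637), and FRD3a, named for a citrate transporter, 0.39 (adjusted p = 0.594). No member passed among 39 phenylpropanoid and isoflavonoid enzymes, 21 aquaporins, 17 heat shock genes, 14 ERF and DREB factors, 9 calcium signalling genes or 6 auxin genes. Of 69 MYB factors only MYB14 passed, of 26 abscisic acid and dehydration genes only PM35, and of 24 other cytochrome P450 genes only CYP71A9. Over all represented genes 1.67% passed. At that share lists of these sizes would hold few members or none, so these counts say little about the lists.

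After adjustment the interaction was called far more often at 72 h than at 12 h, though before adjustment the order was the reverse. At 12 h it passed for 5 probe sets (0.0133%; 0.00532% above 0 and 0.00798% below), none of them among the 544. An unadjusted p under 0.05 was found for 6236 (16.6%) at 12 h, against 5177 (13.8%) at 72 h. Few calls at 12 h thus do not show that the genotypes responded alike then. The 5 were GmaAffx.16203.1.S1_at, GmaAffx.27458.1.S1_at, Gma.12909.2.S1_at, Gma.16831.1.S1_at and GmaAffx.27137.1.S1_at, none with a gene in the name table, with interactions of −3.90 to 0.65. The difference between the interactions at 72 h and at 12 h was itself tested and passed for 270 probe sets (0.718%; 0.42% above 0 and 0.298% below). With 1 array of 72 h left out it passed for 131 to 619. It moved by over 1.5 times to 164 without replicate 2 of PI with Al alone, to 165 and 410 without replicates 1 and 2 of PI with Al plus Mg, to 171 and 619 without replicates 2 and 3 of Young with Al alone, and to 145 and 131 without replicates 2 and 3 of Young with Al plus Mg. Of the 544, 160 were among them, all with the sign of their interaction at 72 h, which that difference contains.

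Among named genes, SABATH2 had a fitted interaction of 0.80 at 12 h (limma adjusted p = 0.649) and a fitted difference between times of 7.05 (adjusted p = 0.00448). At 12 h it was above background on 1 array, the first of Young with Al alone, at 4.91. WRKY40 was at background on all 12 arrays of 12 h, so no Mg response was measured then, and its fitted difference between times was 2.24 (adjusted p = 0.000175). PARP3 was above background on 2 arrays of 12 h, and its fitted difference was 1.44 (adjusted p = 0.0408). Below 0 the difference between times passed for PIB1 at −1.13 (adjusted p = 0.0291) and for SLR1 at −0.99 (adjusted p = 0.0411). BZIP28 had −0.34 at 12 h (adjusted p = 0.156), and its difference between times of −0.26 did not pass (adjusted p = 0.409).

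**Figure D5:**
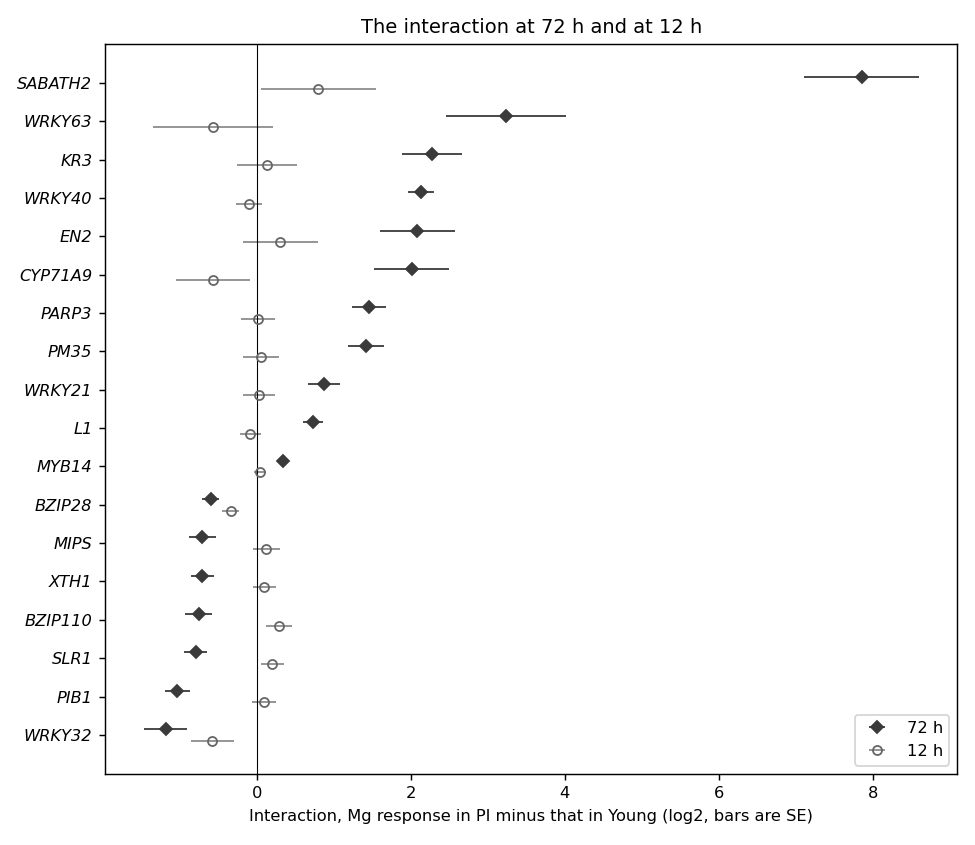
Fitted interaction (x axis, log2, Mg response of PI minus that of Young) of the 18 named genes at 72 h (diamonds) and at 12 h (open circles), with standard errors. The 12 h values lie between −0.58 and 0.80, and SABATH2 shows the widest gap, 7.85 at 72 h against 0.80 at 12 h.

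Ep, the seed coat peroxidase gene, entered through the difference between times. At 72 h it averaged 10.67 ± 0.49 in PI with Al plus Mg and 12.36 ± 0.34 in PI with Al alone, against 9.79 ± 0.22 in Young with Al plus Mg and 12.90 ± 0.36 in Young with Al alone (SD, n = 3 each). Its interaction of 1.42 did not pass at 72 h (limma adjusted p = 0.109), nor did −1.89 at 12 h (adjusted p = 0.0788). The difference between these, 3.31 ± 0.59 (SE), passed (adjusted p = 0.0179). Without replicate 2 of PI with Al plus Mg, the array high in bioB, the interaction at 72 h was 1.69 and passed (adjusted p = 0.0487). In the other 19 of 20 settings it did not pass, with adjusted p up to 0.23.

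The calls of single genes rested on small margins in several cases. Whichever of the 12 arrays was left out, 9 of the 18 named genes kept their call: SABATH2, WRKY40, PARP3, L1, BZIP28, KR3, PM35, SLR1 and PIB1. The last 4 lost it when the spread came from the arrays of 72 h alone (adjusted p = 0.0868, 0.095, 0.0898 and 0.0596). With 1 array left out the call of WRKY32 held in 1 of 12 fits, those of WRKY63, WRKY21, EN2 and MIPS in 2, those of CYP71A9 and BZIP110 in 3 and those of XTH1 and MYB14 in 6. No named gene changed sign in any of the 20 other settings.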

How the data were processed

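The authors deposited a linear intensity for every probe set of each array, per the labels from biotin-labelled RNA on Affymetrix soybean arrays. How probes were summarised and normalized is not given in the sources used here. Array medians were 6.42 to 7.15 on the log2 scale, and the number of arrays limits precision. Values were taken as log2 with a floor of 1. A limma 3.58.1 model in R 4.3.3 fitted the means of the 8 groups over all 24 arrays (16 residual and 1.13 prior degrees of freedom), and p-values were Benjamini-Hochberg adjusted over the 37593 Gma probe sets within each comparison. Where a group lay at background, folds are lower bounds against the array's bound. Names came from the platform's gene table and the RefSeq table of assembly Glycine_max_v4.0 (names only): 8677 probe sets had 1 gene, 370 several and 28546 none, and each of 6031 genes was represented by its probe set of highest mean.

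Named genes were the up to 15 highest and 15 lowest passing interactions whose treatments did not overlap in a genotype, up to 3 passing members of each of 31 gene lists, the 2 highest and 2 lowest passing probe sets without a name, and the 5 named genes of smallest p for the difference between times. The members and lists were chosen with earlier results of these data known. The main fit did not pair arrays by replicate number. Deviations of same-numbered arrays correlated at r = −0.43 to 0.41, and those of differently numbered arrays at r = −0.37 to 0.63. These ranges cannot show whether arrays shared a batch, which was not tested. The alternatives were quantile normalization, equal medians, a signal filter, testing every probe set other than controls, a variance trend, the arrays of one time, a replicate block, an offset of 32, a 2-fold limit and each array left out. Figures were drawn in Python 3.11.15 with matplotlib 3.10.9. The procedure was tested on simulated data that gave each probe set the same spread in every group. That run does not cover unequal spreads between groups or the dependence on single arrays. Promoter sequences were not used here.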

Additional observations from a re-analysis of the deposited data

Results flagged for a closer look

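Genes that passed the limma interaction at 72 h are listed here with its fitted value, the Mg response of PI minus that of Young on the log2 scale. Where a group lay at background the fitted value is no measured size: this holds for MYB14 in all 4 groups, WRKY40 and CYP71A9 outside Young with Al alone, KR3 in PI with Al alone, SABATH2, PARP3 and WRKY21 in both groups with Al plus Mg, WRKY63 and Gma.8292.1.S1_at in Young with Al plus Mg, and Gma.3000.2.S1_a_at in PI with Al plus Mg. Outside Young with Al alone, PM35 and Gma.3774.2.S1_a_at counted as above background but mostly lay close to its bound, so their fitted values are no secure sizes. Above 0 were SABATH2 at 7.85, Gma.3000.2.S1_a_at at 4.36, Gma.3774.2.S1_a_at at 4.35 and WRKY63 at 3.24. The fit gave 2.28 for KR3, 2.13 for WRKY40, 2.09 for EN2, 2.01 for CYP71A9, 1.46 for PARP3 and 1.42 for PM35. It gave 0.88 for WRKY21, 0.73 for L1 and 0.34 for MYB14, the last with no size that can be given. Below 0 were BZIP28 at −0.60, MIPS at −0.71, XTH1 at −0.71, BZIP110 at −0.75 and SLR1 at −0.79. PIB1 had −1.03, WRKY32 −1.19, GmaAffx.47611.1.S1_s_at −4.51 and Gma.8292.1.S1_at −5.34.

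The interaction itself differed between the times, 72 h minus 12 h, by a fitted 7.05 for SABATH2, 5.73 for Gma.3000.2.S1_a_at, 3.31 for Ep, 2.24 for WRKY40 and 1.44 for PARP3. It differed by −0.99 for SLR1, −1.13 for PIB1 and −5.70 for Gma.8292.1.S1_at. WRKY40 was at background on every array of 12 h. Groups of 3 arrays were not searched for single outlying arrays.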

How the results depend on the processing

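No named gene reversed. SABATH2, WRKY40, PARP3, L1 and BZIP28 passed in all 20 settings. The 544 calls shared 155 with the 221 (120 above 0, 101 below) found from the arrays of 72 h alone. With all probe sets but controls 147 passed below 0, Mg responses in PI numbered 19811, genotype differences with Al plus Mg 8469, interactions at 12 h 3 and differences between times 120. With equal array medians 401 passed below 0. At 2-fold or more the counts were 321 (172 above 0, 149 below), with 3965 Mg responses in PI, 5726 in Young, 1089 and 1442 genotype differences with Al plus Mg and Al alone, and 2 interactions at 12 h. An offset of 32 left 3 at 12 h. With the replicate number as a block 426 passed at 72 h, 402 of them shared with the 544, 3 at 12 h and 153 for the difference between times; WRKY63, CYP71A9, WRKY21, MIPS, BZIP110 and WRKY32 lost their call. With 1 array left out the interaction at 72 h passed for 301 to 673 probe sets, 166 to 385 above 0 and 135 to 288 below. Of the 544, 280 (51.5%) to 440 (80.9%) kept their call in these fits. Mg responses numbered 10549 to 12821 in PI and 12176 to 15060 in Young, and genotype differences 1752 to 3779 with Al plus Mg and 2778 to 4863 with Al alone. The ranges were 3 to 7 at 12 h and 131 to 619 for the difference between times. The low end of the interaction and of the genotype difference with Al plus Mg came without replicate 2 of Young with Al plus Mg. The causes were not tested. The difference between times cannot be had from the arrays of one time, and the planned search of promoters for motifs was not run.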
